A study of Homo sapiens with 3 samples.

Results

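Transcript levels of 9 chemokine genes that keratinocytes are known to make were followed in 3 keratinocyte lines. The genes were CXCL1, CXCL2, CXCL3, IL8 (now CXCL8), CXCL5, CXCL16, CCL20, CCL22 and CCL28. They were taken by symbol from a table of 57773 rows, and each of the 9 symbols had 1 row. All lines came from HaCaT, human skin keratinocytes that immortalised spontaneously in culture, and all expressed the oncogenic HRAS mutant HRasG12V, the control included. One line carried an empty vector, one wild-type THG-1 (WT) and one the S264A form of it, with alanine in place of 1 serine. THG-1 is a leucine zipper protein of the TSC22 family, encoded by TSC22D4. Cells were grown in medium with serum and no added cytokine is named. Each line was represented by 1 RNA sequencing library. The sources used here do not say whether a line was 1 clone or a pool of transduced cells, nor which promoter drove each transgene. The series title links THG-1 to IL-1 and NF-kB signalling.

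Chemokines are small secreted proteins that guide leukocytes along a gradient through receptors coupled to G proteins. The CXC chemokines with a glutamate-leucine-arginine motif ahead of the first cysteines (CXCL1, CXCL2, CXCL3, CXCL5 and IL8) act on CXCR2, IL8 also on CXCR1, and attract neutrophils. Their genes lie together on chromosome 4, and NF-kB and AP-1 are textbook activators of them. CXCL16 is made as a membrane protein, acts on CXCR6 and is released by the proteases ADAM10 and ADAM17. CCL20 acts on CCR6, CCL22 on CCR4 and CCL28 on CCR10, and these CC chemokines draw dendritic cells and T cells to skin and mucosa.

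Promoter sequences were compared first, because several of the neutrophil chemokine genes differed between the lines in the same direction while CXCL2, one of their closest relatives, was almost silent. The windows came from RefSeq (build GRCh38.p14), ran from 250 bases before to 50 bases after the start site, and were at hand for 8 of the 9 genes, all but CXCL16. For the 5 genes on chromosome 4, in their order along it, the 120 bases before the start are shown 5′ to 3′ on the strand of the gene. Capitals mark the word GGAATTTCC, a form of the NF-kB site (kappaB site), searched on both strands.
IL8 (chr4:73740449-73740568, plus strand): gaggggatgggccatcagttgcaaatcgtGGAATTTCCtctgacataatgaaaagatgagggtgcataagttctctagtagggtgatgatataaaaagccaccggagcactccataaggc
CXCL1 (chr4:73869273-73869392, plus strand): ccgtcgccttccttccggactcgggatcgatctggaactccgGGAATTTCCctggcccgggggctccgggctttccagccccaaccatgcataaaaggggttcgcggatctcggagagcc
CXCL5 (chr4:73998678-73998797, minus strand): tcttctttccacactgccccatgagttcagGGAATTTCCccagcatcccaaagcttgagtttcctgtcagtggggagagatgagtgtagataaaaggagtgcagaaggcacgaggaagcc
CXCL3 (chr4:74038690-74038809, minus strand): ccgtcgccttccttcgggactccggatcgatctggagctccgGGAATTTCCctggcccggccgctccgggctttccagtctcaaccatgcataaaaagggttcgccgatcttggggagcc
CXCL2 (chr4:74099196-74099315, minus strand): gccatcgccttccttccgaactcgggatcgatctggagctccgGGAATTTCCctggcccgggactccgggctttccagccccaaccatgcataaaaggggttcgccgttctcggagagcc

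The word GGAATTTCC stood once in each of these 5 windows, against 0.461% of all 35116 promoter windows of the same length (162 windows). It ended 70 bases before the start in CXCL1 and CXCL3, 69 in CXCL2, 82 in CXCL5 and 83 in IL8. CXCL1 and CXCL3 were 81.4% identical over the 250 bases before the start, CXCL2 and CXCL3 73.3%, and CXCL1 and CXCL2 68.0%. The 5 occurrences are therefore not independent of each other. The word is also a site form of NF-kB, a textbook activator of these genes, so finding it was likely beforehand. Identity to CXCL1 was 42.8% for IL8 and 44.3% for CCL20, a CC gene on another chromosome. The AP-1 word TGANTCA, found in 7.71% of windows, stood only in IL8 among the 8 genes, and the word TATAAA, found in 11.5%, in IL8 and CCL20. The windows of CCL20, CCL22 and CCL28, the last with 2 annotated starts, held no GGAATTTCC. These windows were also searched for a looser kappaB word of 10 bases (3 G, any 5 bases, 2 C, on either strand), which 58.7% of windows hold and which overlaps GGAATTTCC in CXCL1, CXCL2, CXCL3 and CXCL5. CCL20 held 5 matches, CCL22 4, CCL28 1 at one start and 0 at the other, CXCL3 5, CXCL1 and CXCL2 3 each, CXCL5 2 and IL8 1. The 120 bases before the CCL20 start are shown as well. Capitals mark the matches to this looser kappaB word, 3 of them overlapping in the first run.
CCL20 (chr2:227813722-227813841, plus strand): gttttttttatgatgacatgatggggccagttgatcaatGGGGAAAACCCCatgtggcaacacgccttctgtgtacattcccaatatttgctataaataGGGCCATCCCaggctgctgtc
These matches describe letters in a window, and no binding was measured.

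**Figure D1:**
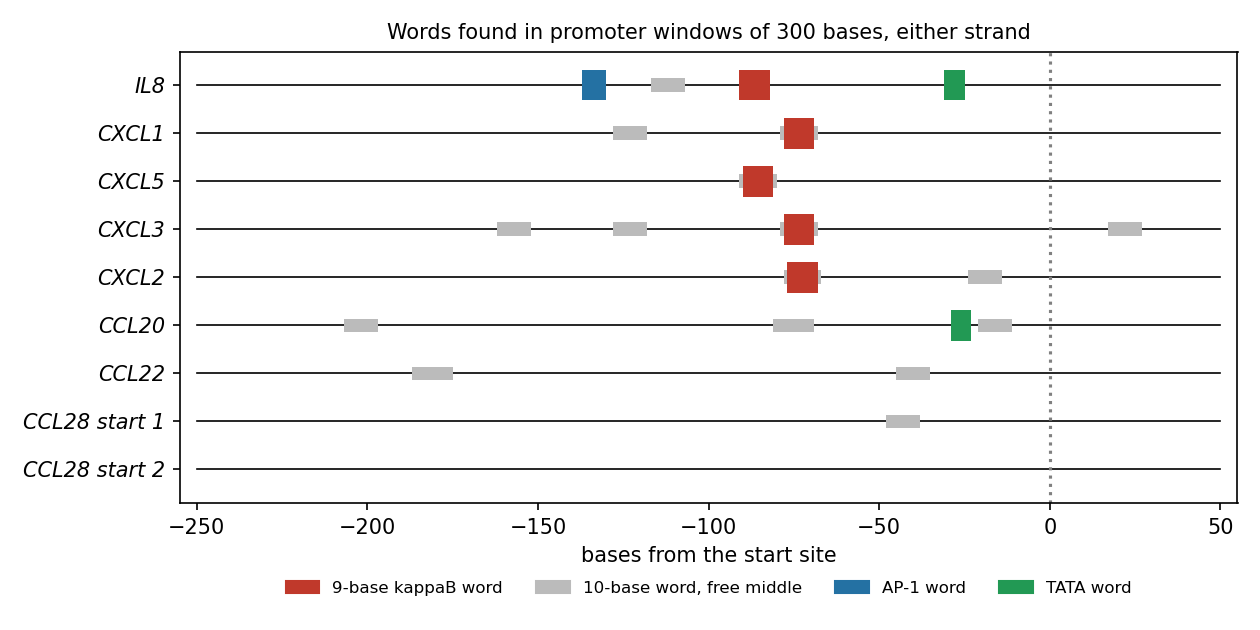
Positions of the searched words in promoter windows of 300 bases, with the distance from the start site in bases on the x axis and 1 line per annotated start. Red boxes (the 9-base word GGAATTTCC) lie between 69 and 91 bases before the start in all 5 genes of the chromosome 4 cluster that are shown and in none of the CC genes. Grey boxes (the looser kappaB word) also lie in windows of CCL20, CCL22 and CCL28.

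The libraries held 32055052 reads (empty vector), 12733479 (WT) and 14022885 (S264A), as recovered from the steps in the values. Levels are RPKM, reads scaled for gene length and library depth, so they can be compared between genes. TSC22D4 stood at 7.98, 64.9 and 51.1 RPKM in the same order, so the S264A line held 0.787 times the transgene-bearing gene's level in the WT line (95% counting interval 0.747 to 0.829). HRAS stood at 23.9, 27.8 and 22.4 RPKM. The HRAS ratio of S264A to WT was 0.806 (0.72 to 0.902), and that of WT to empty vector 1.16 (1.06 to 1.28). For S264A to empty vector it was 0.938 (0.850 to 1.03). All 8 keratinocyte markers were at or above 1 RPKM, with summed levels of 943, 1143 and 1271 RPKM. Of 10 immune markers, 1 reached 1 RPKM, CD68, at 0.941, 5.21 and 1.70 RPKM. The summed immune markers were 1.40, 7.38 and 2.19 RPKM, highest in the library where the chemokines were highest, and their part in the results was not tested. Among the others, HLA-DRA (0.0487, 0.982 and 0 RPKM) and CD74 (0.0980, 0.814 and 0.0672 RPKM) were also highest with WT, whereas PTPRC and CD3E, which define leukocytes and T cells, were at 0 with WT and at or below 0.0251 RPKM elsewhere. Fibroblast markers summed to 4.51, 4.22 and 4.47 RPKM, melanocyte markers to 1.15, 2.07 and 1.31 RPKM and endothelial markers to 0.374, 0.691 and 1.66 RPKM, with 1 marker at or above 1 RPKM in each list. In bulk RNA, fewer cells that make a transcript and less transcript per cell cannot be told apart. With 1 library per line there is no spread between replicates, no test of a line was possible, and every interval given covers counting error only.

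IL8, the strongest neutrophil attractant of the set, stood at 1.11 RPKM with empty vector (81 reads), 15.5 RPKM with WT (450 reads) and 1.51 RPKM with S264A (48 reads). It was high in the WT line and low in the other lines, whose counting intervals overlapped (0.883 to 1.38 and 1.11 to 2.00 RPKM). The WT line held 13.99 times the empty-vector level (11.0 to 17.9). S264A held 1.35 times that level, with an interval that included 1 (0.928 to 1.96), and was 10.3-fold below WT (7.66 to 14.2). Among 12069 genes compared between S264A and WT, only 11 had a lower log2 difference than IL8, which ranked 12 from the bottom.

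CXCL1, the growth-regulated chemokine first described as a melanoma growth factor, was the most abundant neutrophil chemokine in every library. It stood at 4.67 RPKM with empty vector (194 reads), 25.3 RPKM with WT (418 reads) and 4.57 RPKM with S264A (83 reads). The WT level lay apart, and the other levels could not be separated by counting error. The ratio of WT to empty vector was 5.42 (4.56 to 6.46) and that of S264A to empty vector 0.978 (0.747 to 1.27). S264A was 5.55-fold below WT (4.37 to 7.11), rank 21 from the bottom.

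CXCL3, a close paralog of CXCL1, showed the same order at a lower level, 0.380 RPKM with empty vector (27 reads), 1.34 RPKM with WT (38 reads) and 0.129 RPKM with S264A (4 reads). WT was 3.54-fold above empty vector (2.11 to 6.03) and 10.5-fold above S264A (3.77 to 40.4). S264A stood below empty vector, at 0.339 times its level (0.0861 to 0.972), on 4 reads.

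CXCL2, the remaining gene of this trio, was not detected with WT or S264A and had 1 read with empty vector (0.0208 RPKM). A count of 0 allowed up to 0.157 RPKM with WT and 0.143 RPKM with S264A at 3 reads, against 25.3 and 4.57 RPKM for CXCL1. CXCL1, CXCL2 and CXCL3 share sequence, and the sources used here do not say how reads that fit several genes were counted. Of the 50-base words in CXCL2 transcripts (GENCODE release 29), 12.5% also occurred in transcripts of other genes, which were CXCL3 (139 words) and CXCL1 (60 words). The shares were 4.8% for CXCL1, 6.0% for CXCL3 and 0.0% for IL8. CXCL5 was near the floor as well, with 0 reads with empty vector, 5 with WT (0.155 RPKM) and 1 with S264A (0.0281 RPKM). Its WT level was at least 4.196-fold higher than a floor of 3 reads in the empty-vector library. CXCL2 and CXCL5 both carry the capital word shown above, as do CXCL1, CXCL3 and IL8.

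CXCL16, the membrane-bound chemokine, had the highest level of the 9 in every library, though within counting error of CXCL1 with empty vector. It stood at 4.88 RPKM with empty vector (437 reads), 30.6 RPKM with WT (1090 reads) and 15.6 RPKM with S264A (613 reads). All 3 levels were separated by counting error. WT was 6.28-fold above empty vector (5.61 to 7.03) and S264A 3.21-fold above it (2.83 to 3.63). S264A was 1.96-fold below WT (1.77 to 2.17). In GENCODE release 29, 85 bases (3.0%) of the CXCL16 exons overlap those of MED11 on the opposite strand, and whether the counting used strand is not known here. MED11 itself stood at 5.47, 5.37 and 4.39 RPKM.

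CCL22, a ligand for T cells that carry CCR4, stood at 1.11 RPKM with empty vector (104 reads), 3.46 RPKM with WT (129 reads) and 2.29 RPKM with S264A (94 reads). WT was 3.12-fold above empty vector (2.39 to 4.08) and S264A 2.07-fold above it (1.55 to 2.76), and S264A held 0.662 times the WT level (0.502 to 0.870). CCL28, a chemokine of mucosal epithelia, stood at 0.0810 RPKM with empty vector (12 reads), 1.09 RPKM with WT (64 reads) and 0.725 RPKM with S264A (47 reads). WT was 13.4-fold above empty vector (7.18 to 27.3), S264A 8.95-fold (4.68 to 18.5), and S264A held 0.667 times the WT level (0.448 to 0.987). For both CC genes the S264A library lay between the others. CCL20, the CCR6 ligand, had 0 reads with empty vector, 2 with WT (0.118 RPKM) and 0 with S264A, and no fold was given. Its gene length was inferred, and at the smallest length that fits the WT library held 1 read.

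**Figure D2:**
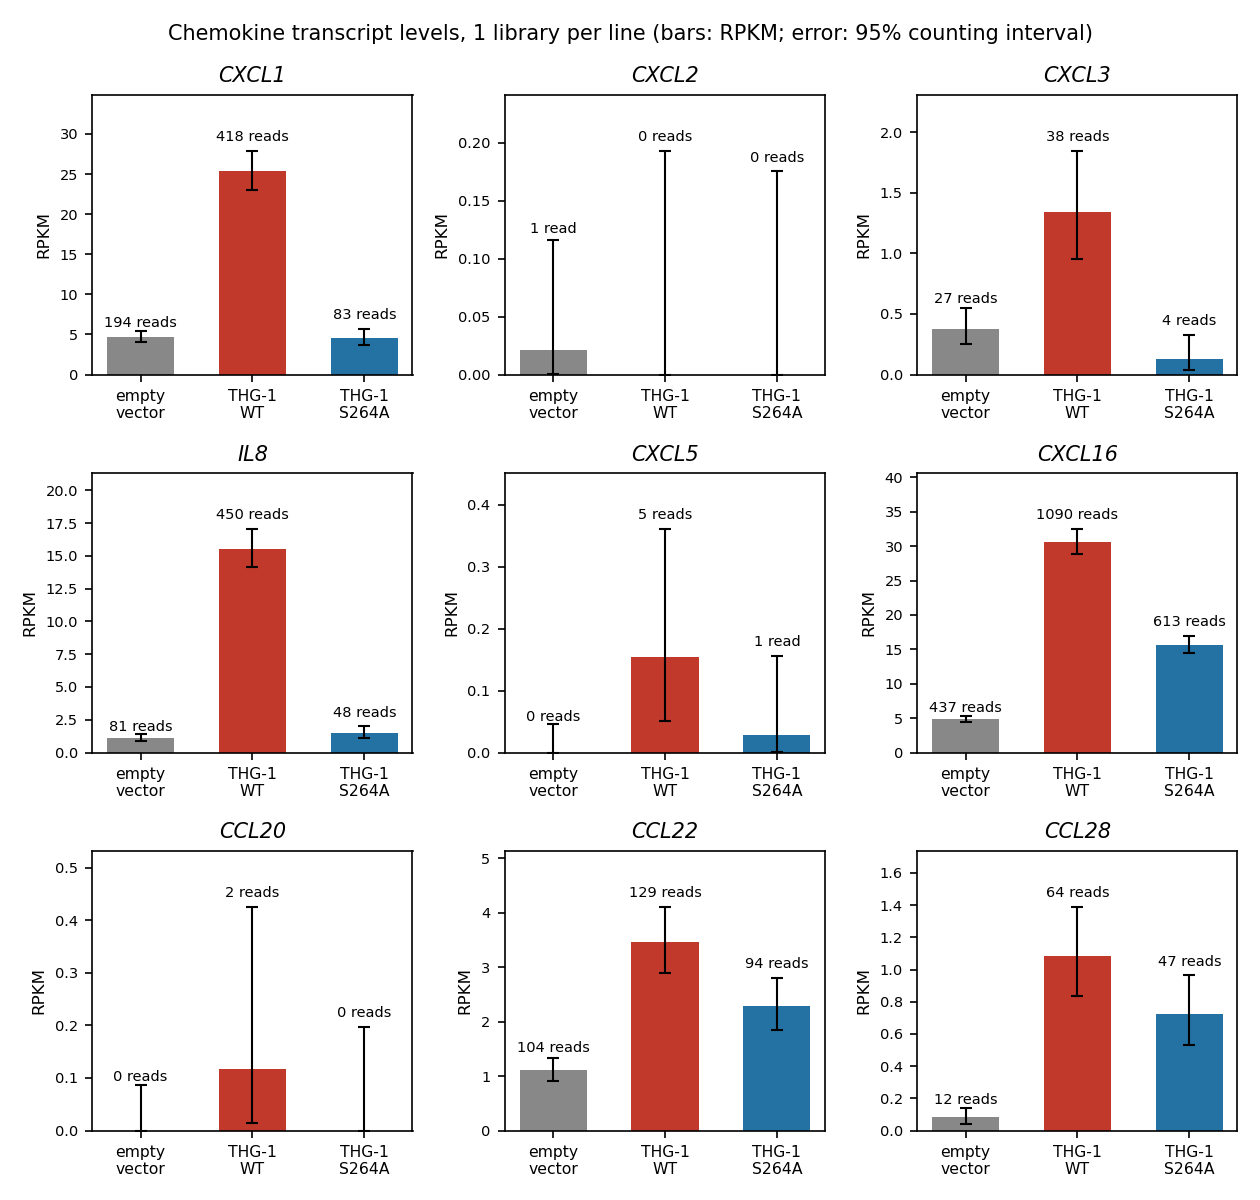
RPKM of each chemokine gene (y axis, from 0, a scale of its own per gene) in the 3 libraries. Bars are the level in 1 library, error bars the exact 95% Poisson counting interval, and the reads are printed above. IL8, CXCL1 and CXCL3 are high with WT alone (15.5, 25.3 and 1.34 RPKM), whereas CXCL16, CCL22 and CCL28 are intermediate with S264A (15.6, 2.29 and 0.725 RPKM).

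The 9 genes together summed to 12.2 RPKM with empty vector, 77.7 RPKM with WT and 24.9 RPKM with S264A, ratios of 6.34 and 2.03 to empty vector. CXCL16 made up 39.8%, 39.4% and 62.9% of these sums, and CXCL1 38.1%, 32.6% and 18.4%. With S264A, CXCL16 was the larger part of the sum.

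Each gene was then placed against all genes by its difference in log2(RPKM + 1), a scale that understates the change of low genes, among genes that reached 1 RPKM in either of the libraries compared. WT was set against empty vector first. CXCL1, IL8, CXCL16 and CCL22 were at least 2-fold higher on this scale (2.22, 2.97, 2.43 and 1.08), and none of the 9 was at least 2-fold lower. These were 4 of the 6 that passed the filter, against 4.53% of 11993 genes at least 2-fold higher (543 genes) and 1.54% lower (185 genes). CCL28 (0.95) and CXCL3 (0.77) were positive and short of the rule, and CXCL2, CXCL5 and CCL20 did not pass the filter. The median was 1.65 over the 6 and 0.95 over all 9, and -0.01 over all genes. Scaling to the same upper quartile moved the median gene to -0.22 and CCL22 to 0.92, under the rule, and scaling to an equal sum moved CCL22 to 0.97 and the median gene to -0.14. Of all genes past the rule, 74.6% were higher with WT, 51.8% after the first scaling and 62.7% after the other. CCL22 also fell short with a pseudocount of 5 (0.47). CXCL1, IL8 and CXCL16 kept differences of at least 1.65 under both scalings, with pseudocounts of 0.1 and 5, and in the quantile-normalised columns of the authors.

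S264A was next set against empty vector. CXCL16 alone was at least 2-fold higher (1.5), 1 of the 4 that passed the filter, against 2.99% of 12010 genes, and none was lower, against 0.824%. Of all genes past the rule 78.4% were higher with S264A, and 59.3% after upper-quartile scaling. The other differences were 0.64 for CCL22, 0.25 for IL8 and -0.03 for CXCL1. Last, S264A was set against WT. IL8 (-2.72), CXCL1 (-2.24) and CXCL3 (-1.06) were at least 2-fold lower in S264A, 3 of the 6 that passed the filter, against 2.23% of 12069 genes, and none was higher, against 1.55%. CXCL3 and CCL28 passed the filter only through the WT library, in this comparison and in that of WT with empty vector, so these counts and medians describe the genes that passed and no more. CXCL16 (-0.93), CCL22 (-0.44) and CCL28 (-0.28) were lower and short of the rule. CXCL3 stood at -1.0 with either scaling, still past the rule, and at -0.31 with a pseudocount of 5, short of it. It did not enter with a filter at 5 RPKM. Another rule, chosen after seeing the data, was a plain ratio of at least 2 with an interval on 1 side of 1. It took genes with more than 3 reads in a library. By it, 7 of the 9 were higher with WT than with empty vector, against 8.01% of genes, and none was lower, against 6.18%. CXCL2 and CCL20 had too few reads to enter, and CXCL5 rested on 5 reads against 0. With S264A against empty vector, CXCL16, CCL22 and CCL28 were higher, against 7.80%, and CXCL3 was lower, against 3.80%. With S264A against WT, IL8, CXCL1 and CXCL3 were lower, against 4.80%, and none was higher, against 6.55%. The comparisons share libraries and are not independent of each other.

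**Figure D3:**
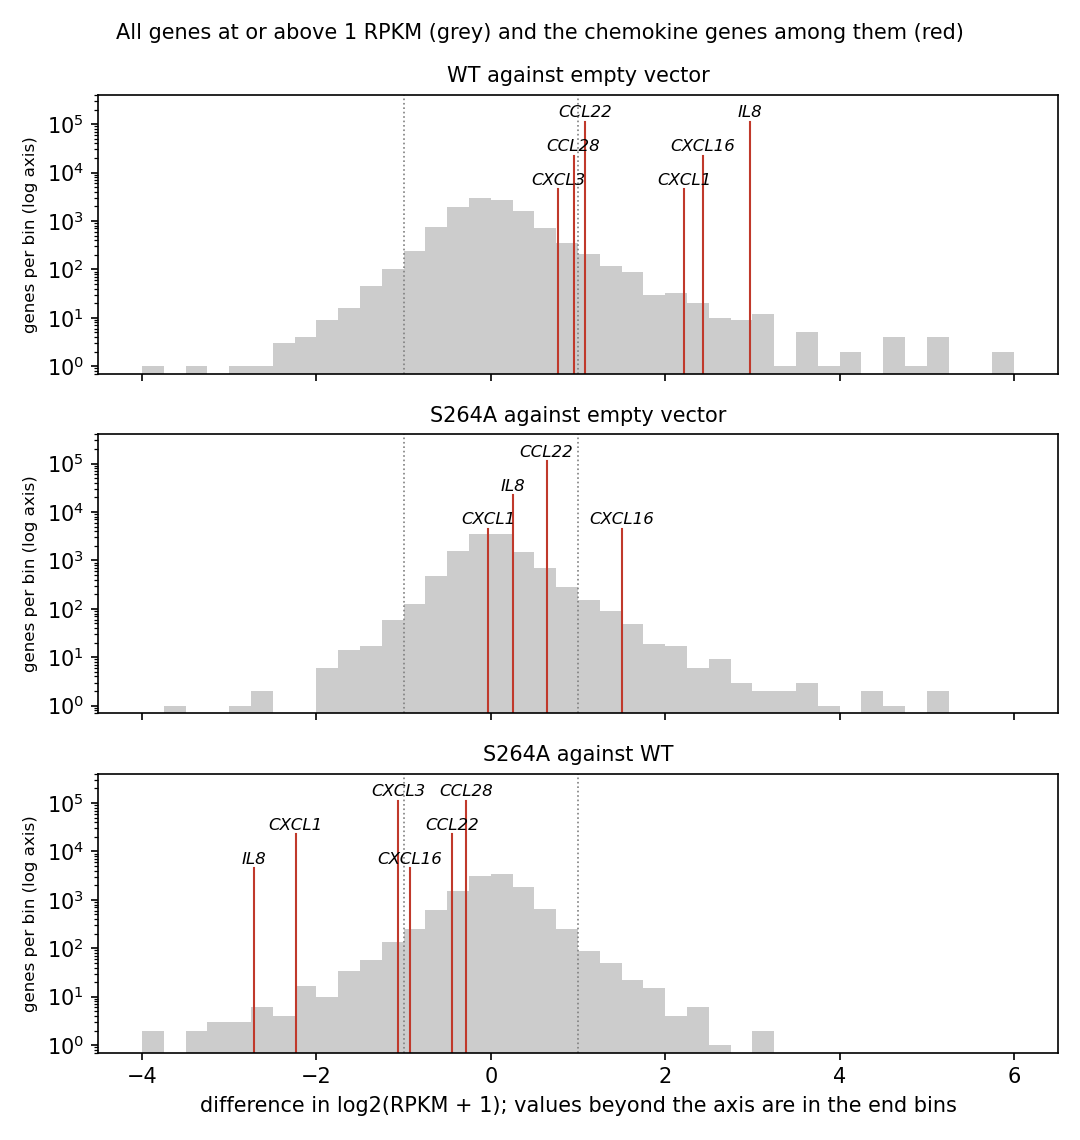
Difference in log2(RPKM + 1) for all genes that reached 1 RPKM in either library (grey, genes per bin of 0.25 on a log axis) and for the chemokine genes among them (red lines, whose height only carries the label). Dotted lines mark a 2-fold difference. IL8, CXCL16 and CXCL1 lie in the right tail for WT against empty vector, and IL8 and CXCL1 in the left tail for S264A against WT.

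The position of S264A between the other lines differed among the genes. Taking the empty-vector level as 0 and the WT level as 100, S264A stood at 2.7 for IL8, -0.5 for CXCL1 and -26.0 for CXCL3. It stood at 41.8 for CXCL16, 50.2 for CCL22 and 64.0 for CCL28. In plain shares of the WT level, S264A held 9.7% for IL8, 18.0% for CXCL1 and 9.6% for CXCL3, but 51.1% for CXCL16, 66.2% for CCL22 and 66.7% for CCL28. The counting intervals of the S264A to WT ratio did not overlap between these sets, with upper bounds of 0.131, 0.229 and 0.265 for the first 3 genes and lower bounds of 0.462, 0.502 and 0.448 for the others. The sets were noted after their values were seen. A ratio of libraries without replicates compares these libraries and not the constructs. The S264A line also had lower levels of TSC22D4 (0.787 times WT) and of HRAS (0.806 times WT). The part of these differences was not tested.

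**Figure D4:**
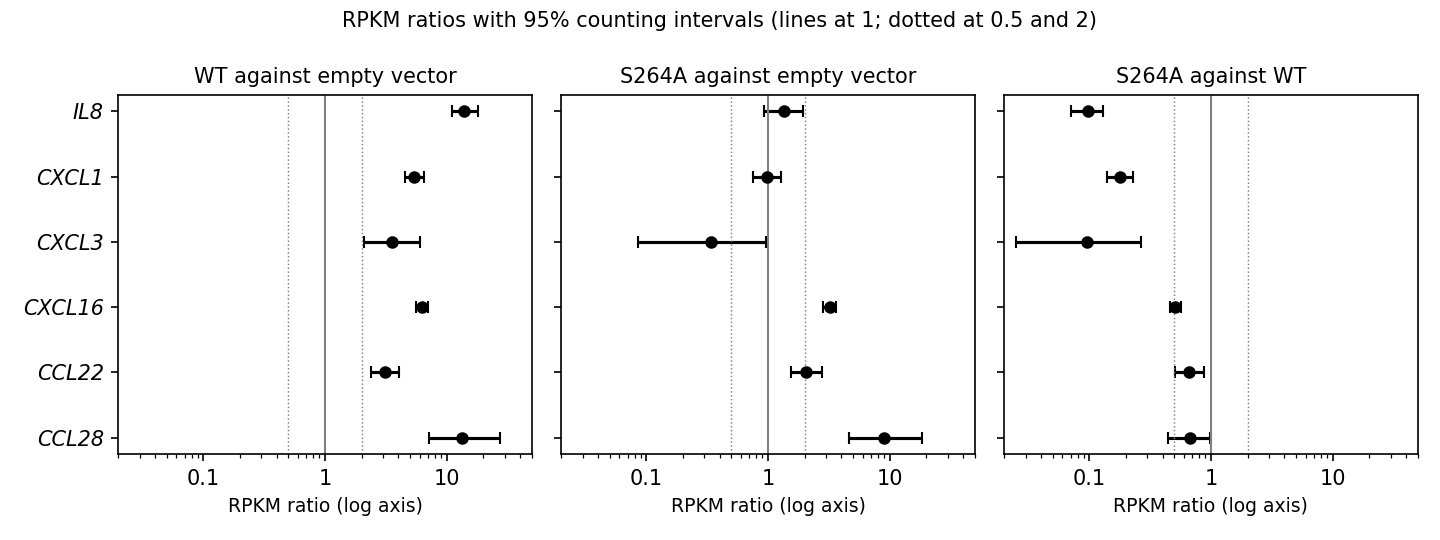
Ratio of RPKM (x axis, log scale) with its exact 95% counting interval for the 6 chemokine genes with more than 10 reads in a library, in the 3 comparisons. In the right panel IL8, CXCL1 and CXCL3 lie at 0.0969, 0.180 and 0.0956, to the left of CXCL16, CCL22 and CCL28 at 0.511, 0.662 and 0.667.

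Along chromosome 4 the genes of the CXC cluster are ordered IL8, CXCL6, PF4V1, CXCL1, PF4, PPBP, CXCL5, CXCL3 and CXCL2 in RefSeq. CXCL6, which also holds GGAATTTCC in its window, stood at 0.372, 1.01 and 0.882 RPKM (26, 28 and 27 reads). WT was 2.71-fold (1.53 to 4.81) and S264A 2.37-fold (1.33 to 4.23) above empty vector for CXCL6, and the ratio of S264A to WT was 0.876 (0.497 to 1.54). The platelet chemokine genes PF4 and PF4V1 were at 0 in all 3 libraries, and PPBP had 5 reads with WT and 0 in the others. Of the genes that flank the cluster, RASSF6, beside IL8, stood at 1.53, 1.04 and 0.989 RPKM, and MTHFD2L, beside CXCL2, at 0.674, 0.408 and 0.596 RPKM. Beyond MTHFD2L, EPGN (0.138, 0.563 and 0.157 RPKM) and EREG (0.289, 1.085 and 0.686 RPKM) were highest with WT. Beyond RASSF6, AFM and AFP were at 0 in every library.

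**Figure D5:**
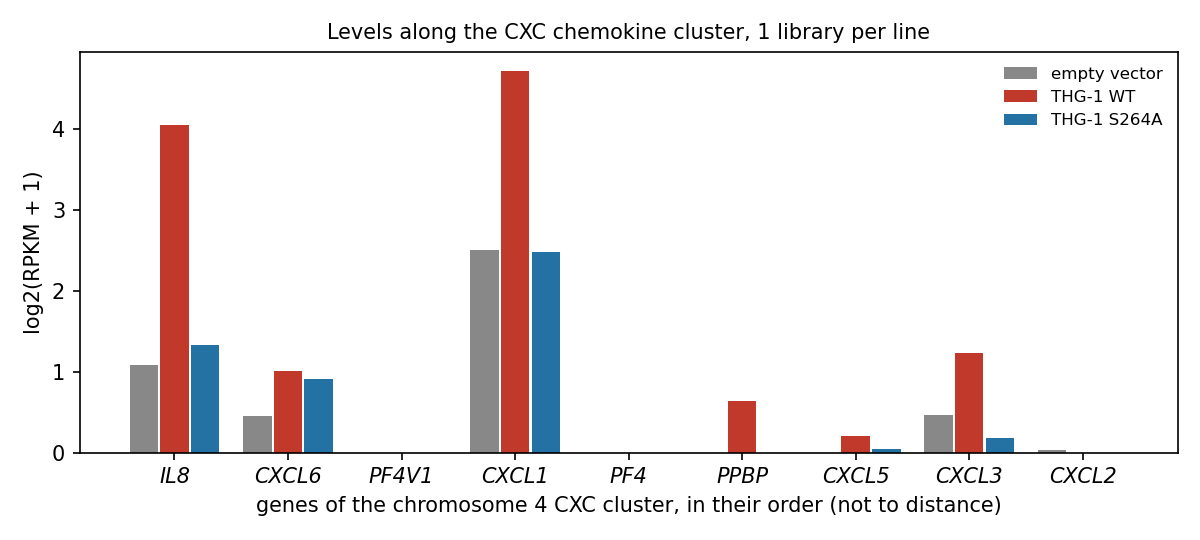
Level as log2(RPKM + 1) (y axis, from 0) of the 9 genes of the chromosome 4 CXC cluster in their order on the chromosome (x axis, not to distance), 1 bar per library. IL8 and CXCL1 carry the tallest WT bars, while CXCL2, PF4 and PF4V1 are at or near 0 in all libraries.

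Near CXCL16 on chromosome 17, ZMYND15 had the same order of levels, 0.0758, 0.978 and 0.412 RPKM, short of 1 RPKM in every library. ARRB2 (2.40, 4.62 and 3.38 RPKM) and PELP1 (15.8, 20.4 and 16.8 RPKM) had that order too. MED11, TM4SF5 and VMO1 did not. Beside CCL22 on chromosome 16 lie the chemokine genes CX3CL1 (0.0417, 0.0262 and 0.0834 RPKM) and CCL17 (0.254, 0.766 and 0.928 RPKM), of which CCL17, the other CCR4 ligand, rested on 5, 6 and 8 reads.

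Most chemokine genes outside the 9 had few or no reads, as did CXCL2, CXCL5 and CCL20 among the 9. Of 39 other chemokine genes in the table, 20 had no read in any library, 7 had at most 3 reads and 12 had more, and only 2 (CXCL6 and CCL5) reached 1 RPKM in any library and could be called. Neither was at least 2-fold different by the rule, although plain ratios of some of the 39 exceeded 2. CCL5, a chemokine of T cells and monocytes, was the most abundant of them at 1.09, 2.44 and 0.849 RPKM, with a ratio of WT to empty vector of 2.23 (1.48 to 3.37) and of S264A to WT of 0.348 (0.190 to 0.610). Its log2 differences of 0.72 and -0.90 were short of the rule.

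Transcript levels were also compared for a list of 21 IL-1 and NF-kB genes. They do not measure the activity of the pathway, and its part in the chemokine levels was not tested. In WT against empty vector 11 of 21 passed the rule as higher and 0 as lower, with a median of 1.15, against 4.53% and 1.54% of all genes. In S264A against empty vector 3 of the 20 that passed the filter were higher (2.99% of all genes), and in S264A against WT 6 of 21 were lower (2.23%) and none higher. IL1A, the epidermal alarmin, stood at 0.485, 12.3 and 1.91 RPKM, and the NF-kB subunit genes NFKB2 at 4.92, 24.2 and 7.72 RPKM and RELB at 1.02, 5.54 and 1.95 RPKM. TNFAIP3, the gene of the inhibitory ubiquitin-editing enzyme A20, stood at 1.57, 21.2 and 3.70 RPKM. IL1B stood at 1.39, 14.8 and 3.87 RPKM and IRAK2, an adaptor kinase of the IL-1 receptor, at 0.0537, 1.78 and 0.430 RPKM. NFKBIZ, a nuclear IkB protein, stood at 1.88, 5.40 and 5.08 RPKM, where S264A held 0.939 times the WT level (0.818 to 1.08). RELA, the subunit bound at many kappaB sites, stood at 9.15, 12.0 and 10.9 RPKM, short of the rule in every comparison. Many genes of this list are themselves NF-kB targets, so their direction is not independent of that of the chemokines.

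Many chemokine transcripts carry AU-rich elements and are short-lived. Of 8 genes of mRNA decay and stability, most of them for proteins that bind AU-rich elements, ZC3H12A was at least 2-fold higher with WT (3.11, 12.8 and 4.76 RPKM), 4.11-fold above empty vector (3.56 to 4.75), and at least 2-fold lower in S264A than in WT. It encodes the RNase regnase-1, which cuts inflammatory mRNAs at stem-loops rather than through AU-rich elements. The other 7, among them ZFP36 (6.07, 7.85 and 7.63 RPKM), were short of the rule in all comparisons. ZC3H12A was 1 of 8 in each call. Over all genes, 4.53% were higher with WT than with empty vector and 2.23% lower in S264A than in WT. One call in a list this small says little about the list.

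Of 15 genes that process or bind chemokines, 10 passed the filter. The CXCL16 sheddase genes ADAM10 (15.6, 11.5 and 14.5 RPKM) and ADAM17 (5.89, 7.87 and 5.92 RPKM) were short of the rule, while CXCL16 itself was 6.28-fold higher with WT. The matrix metalloproteinase gene MMP14 was at least 2-fold higher with WT and with S264A than with empty vector (15.5, 46.7 and 32.2 RPKM). MMP1, an interstitial collagenase, was at least 2-fold lower with S264A than with empty vector (15.3, 11.1 and 6.15 RPKM). MMP2, a gelatinase, was at least 2-fold higher with S264A than with WT (4.53, 3.06 and 8.82 RPKM). Each of these calls was 1 of 10. Over all genes, 4.53% were higher with WT and 2.99% with S264A than with empty vector. The share lower with S264A than with empty vector was 0.824%, and that higher with S264A than with WT 1.55%. Single calls in a list this small say little about the list.

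The matching receptors were hardly expressed. Of 23 chemokine receptor genes, 8 had no read in any library and 1, ACKR3, reached 1 RPKM. CXCR2 had 8, 4 and 4 reads, and CXCR1 0, 2 and 1. CXCR6, the receptor of CXCL16, stood at 0.314, 0.333 and 0.511 RPKM. ACKR3, an atypical receptor that takes up CXCL11 and CXCL12, stood at 2.40, 1.15 and 4.23 RPKM. It was lowest in the WT library, opposite to the chemokines, with S264A 3.69-fold above WT (2.50 to 5.57) and past the 2-fold rule. No other receptor gene passed the filter, and 1.55% of all genes were at least 2-fold higher in that comparison.

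Genes with the most similar pattern were sought among 6375 other genes at or above 5 RPKM in a library, by the distance over the log2(RPKM + 1) differences of WT and of S264A from empty vector. Those differences share the empty-vector library and rest on 3 libraries, so likeness is a description of these libraries. Nearest to IL8 were PXDN (distance 0.22), OLFM4 (0.32), GPR176 (0.36) and PLAU (0.42). PXDN stood at 0.0249, 8.32 and 0.247 RPKM and OLFM4 at 0.0323, 6.425 and 0 RPKM, beside 1.11, 15.5 and 1.51 RPKM for IL8. Their plain ratios of WT to empty vector were therefore far larger than that of IL8, because the added 1 RPKM shrinks the change of low genes. The same holds to a lesser degree for CFB (0.393, 5.85 and 0.771 RPKM) beside CXCL1. Nearest to CXCL1 were TYMP (0.13), TFPI2 (0.24), CFB (0.38) and IFI6 (0.39), and nearest to CXCL16 were WFDC2 (0.12), KRT10 (0.13), KLK7 (0.21) and ASS1 (0.24). WFDC2, for instance, stood at 5.39, 30.8 and 16.7 RPKM beside 4.88, 30.6 and 15.6 RPKM for CXCL16. Nearest to CCL28 were MRPS26 (0.02), GPRC5A (0.03), PHLDA1 (0.05) and PNP (0.06), all of higher level, so their plain ratios were smaller than the 13.4-fold of CCL28.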

How the data were processed

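RNA of 3 HaCaT-Ras lines was sequenced, with 1 library each. Per the file headers the authors deposited expression values, which the file's name calls RPKM, and normalised expression values. The normalised columns, deposited by the authors, were tested and are quantile-normalised RPKM, since their sorted values equal the means of the sorted RPKM within 6.7e-06. Build hg19 is named per the submitters' processing notes. The sources used here name no aligner, counting program or annotation, and no position from the table is printed. RPKM as deposited was used.

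Whole reads were recovered from depths found on single-exon genes and from lengths at which all 3 libraries came out whole within 0.001 reads, for 25995 of 25998 rows above 0. Lengths came from GENCODE release 29, exactly for all 9 genes except CCL20 and CCL28. One read per kilobase is 0.0312 RPKM with empty vector, 0.0785 with WT and 0.0713 with S264A. The reads served for exact 95% intervals (Clopper-Pearson for ratios, Poisson for levels, scipy 1.17.1). PCR reads are not independent molecules, so these cover counting error only. Replicates were absent, so no test on lines was run. A gene was called at a 2-fold difference in log2(RPKM + 1), if it reached 1 RPKM in either library. Of several rows per symbol (234 symbols) the highest was used.

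The 9 genes, the lists, the comparisons and the 7 alternatives were chosen with earlier results of these data known. All 9 genes are named. Of each list at most 6 genes past the rule in any comparison, by size, are named. ADAM10, ADAM17, ZFP36, RELA, NFKBIZ, CCL5, the chromosome neighbours and receptors short of the rule were named after their values were seen. Similar patterns were limited to 4 genes each for IL8, CXCL1, CXCL16 and CCL28. Alignments used Biopython 1.88.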

Additional observations from a re-analysis of the deposited data

How the results depend on the processing

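Each count was recomputed under 7 other settings and, for the 9 chemokine genes, 1 chosen after seeing the data, and 135 of 153 such values stayed within 1.5 times the count first given. This share overstates the stability. Leaving out the filter could not change a call, since a 2-fold difference in log2(RPKM + 1) already needs 1 RPKM in a library. Counts of 0 that stayed at 0 were also included. None of 135 recomputed log2 differences of single chemokine genes turned its sign where the 2-fold rule was met. This too overstates the stability, since only differences past the rule could count and another pseudocount cannot turn a sign. In size, 44 of the 135 were counted as moved. With a pseudocount of 5, IL8 in WT against empty vector went from 2.97 to 1.75 and CXCL1 from 2.22 to 1.65. The added alternative called a plain RPKM ratio of at least 2 whose counting interval lies on 1 side of 1, among genes with more than 3 reads in a library. It called 7 of the 9 higher in WT against empty vector, against 8.01% of 18966 genes, with CXCL2 and CCL20 too low in reads to enter. In S264A against empty vector it called 3 higher (CXCL16, CCL22 and CCL28, against 7.80%) and 1 lower (CXCL3, against 3.80%). With a pseudocount of 0.1, 2 other chemokine genes and 1 receptor gene were called in WT against empty vector, 6 IL-1 and NF-kB genes in S264A against empty vector, and 1 other chemokine gene in S264A against WT. With a pseudocount of 5, the IL-1 and NF-kB calls were 4 in WT against empty vector and 0 in S264A against empty vector, and processing and binding genes had 0 in S264A against empty vector and 0 in S264A against WT. Receptor and decay genes had 0 in S264A against WT with a pseudocount of 5, as did receptor genes with a filter at 5 RPKM. In S264A against empty vector, upper-quartile scaling left 0 IL-1 and NF-kB calls and 1 of processing and binding genes, and the quantile-normalised columns and equal-sum scaling left 1 of the latter each. The cause was not tested. Over all genes, the counts higher with WT than with empty vector were 543 as first given, 869 with a pseudocount of 0.1, 166 with 5 and 317 with a filter at 5 RPKM. The counts with S264A against empty vector were 359, 695, 85 and 178, and the counts lower with S264A than with WT were 269, 518, 63 and 149. Leaving out a library was not possible with 1 per line. No paired analysis was possible because each line had 1 library. The smaller depth with WT and S264A limits CXCL2, CXCL5 and CCL20, which stood at 5 reads or fewer in every library.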

Other observations

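The chemokines known as interferon-induced, CXCL9, CXCL10 and CXCL11, had few reads, most of them with WT. CXCL11 had 1 read with empty vector, 18 with WT and 4 with S264A, a WT to empty vector ratio of 45.3 with a wide counting interval (7.15 to 1888). CXCL10 had 1, 8 and 2 reads, and CXCL9 had 0, 2 and 0. CCL3, a macrophage chemokine, had 17 reads with WT (0.894 RPKM) and 0 in the other libraries, at least 14.3-fold higher with WT than a floor of 3 reads with empty vector. Its near-identical copies CCL3L1 and CCL3L3 make the assignment of these reads uncertain. CCL4 had 0, 4 and 0 reads. CCL26, an eosinophil chemokine, ran the other way, with 16 reads with empty vector (0.707 RPKM), 3 with WT (0.334 RPKM) and 1 with S264A (0.101 RPKM), and S264A stood at 0.143 times the empty-vector level (0.00341 to 0.920). These genes were named after their values were seen, and all lay below the filter of 1 RPKM.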
